A study of Bos taurus with 48 samples.

Results

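Cholesterol synthesis and uptake genes were examined in bovine longissimus dorsi muscle. The 8 genes were FDFT1, HMGCS1, SQLE, LSS, IDI1, FDPS, INSIG1 and SREBF2, out of 14663 genes tested. They were chosen by name, with earlier results of these arrays in view, and which of those results entered the choice is not recorded. The values below therefore describe genes selected on these data and are not independent support for any pattern. A member was any probe that the raw feature files name with the gene's symbol, and each of the 8 genes had 1 such probe, printed as 2 spots on every array. Of the 8, 6 encode synthesis enzymes and 2 control the pathway. None is itself an uptake gene, so uptake and trafficking genes are given from a list of related genes.

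Muscle biopsies were hybridised to 48 two-colour Agilent arrays, giving 96 channels from 35 animals. In the developmental experiment, Piedmontese × Hereford and Wagyu × Hereford crosses were sampled at 60, 135 and 195 days of gestation, at birth, and at 3, 7, 12, 20, 25 and 30 months, with both crosses on every array. In the diet experiment, adult Belmont Red cattle on a weight loss diet shared each array with cattle on a growth diet at times 0, 1 and 2. The authors describe these times as spanning nutritional deprivation and re-feeding, without placing each time in a phase. At 60 days each cross was 1 animal measured on 3 arrays, and the ages held 5, 5 and 6 animals at 135 days, 195 days and birth, 6 at 12 months and 8 at each other post-natal age. The diet groups were 4 animals each at time 0, 3 on weight loss and 4 on growth at time 1, and 2 each at time 2. Channels of one animal at one age were averaged, so that n counts animals within an age. After birth 9 animals were sampled at several ages, so the 46 post-natal values are not independent. Diet animals were also measured at more than one time. The 60, 135 and 195 day and birth samples shared slides 1, 2 and 3. The 3, 7, 12 and 20 month samples shared slides 7, 8, 9 and 11. The 25 and 30 month samples shared slides 10 and 12, and each diet time was on a slide of its own. Differences between these sets of slides cannot be told apart from the slide. These include fetal to post-natal, birth to 3 months and 3 to 30 months.

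Between 51.1% and 78.9% of probes per channel were well above background. One library stood apart. In the Piedmontese cross animal GP672 at 135 days, all 5 muscle fibre markers were lower and all 5 adipocyte markers higher than in the other 4 animals of that age. ACTA1, skeletal muscle actin, was at a log2 intensity of 10.03 there and at 16.73 to 17.58 in the others, while FABP4, a fatty acid carrier of fat cells, was at 16.56 against 9.02 to 11.63. This library was 1 channel of 1 array. Several member results are given with and without it. All other values, among them the gene lists, marker counts and cross differences, include it. In the other libraries the muscle fibre markers summed to at least 140678 intensity units, against 9698 in GP672.

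Cells make cholesterol from acetyl-CoA through mevalonate, isoprenoids, squalene and lanosterol, and they also take it up from lipoproteins. The transcription factor SREBP2, encoded by SREBF2, is released from the endoplasmic reticulum when membrane sterol is low and switches on nearly the whole pathway and its own gene. INSIG1 holds the precursor of SREBP2 back when sterol is plentiful and is itself a target. Among the enzymes, HMGCS1 makes HMG-CoA, IDI1 and FDPS build the isoprenoids, FDFT1 joins them into squalene, and SQLE and LSS turn squalene into lanosterol. Growing and dividing cells need cholesterol for membranes, and differentiated muscle is known more for oxidising fuel than for making sterol.

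The sequences of 3 probes are shown because the genes they measure departed from the other members. LSS was measured by a pair of probes that moved in opposite directions, and FDFT1 was the 1 member not called between fetal and post-natal muscle. The bases are written as in the files.

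LSS, probe named LSS: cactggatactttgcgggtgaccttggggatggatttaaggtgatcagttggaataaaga

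LSS, other probe of the same gene number: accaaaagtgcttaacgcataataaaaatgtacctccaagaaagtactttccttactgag

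FDFT1: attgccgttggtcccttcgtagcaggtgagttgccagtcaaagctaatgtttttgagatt

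The LSS probes shared no run longer than 6 bases in either orientation and differed in GC content, at 45% and 35%. The probe named LSS was well above background in 69 of 96 channels, and the other probe, which the symbol search does not find, in 96 of 96. The remaining members were well above background in 96 of 96 channels.

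Most of the cholesterol genes were higher in fetal than in post-natal muscle. Fetal and post-natal samples were on different slides, so this contrast cannot be told apart from the slide. From the fetal ages to the post-natal ages 6 of the 8 genes fell and 1 rose, by limma with Benjamini-Hochberg adjustment over all genes. Over all 14663 genes, 40.7% rose and 38.4% fell in that contrast. The median member difference was −0.70 on the log2 scale, beside 0.03 over all genes. SQLE and SREBF2 differed most, and the 6 fell also without GP672. The riser was the probe named LSS, which was well above background in only part of the fetal channels.

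**Figure D1:**
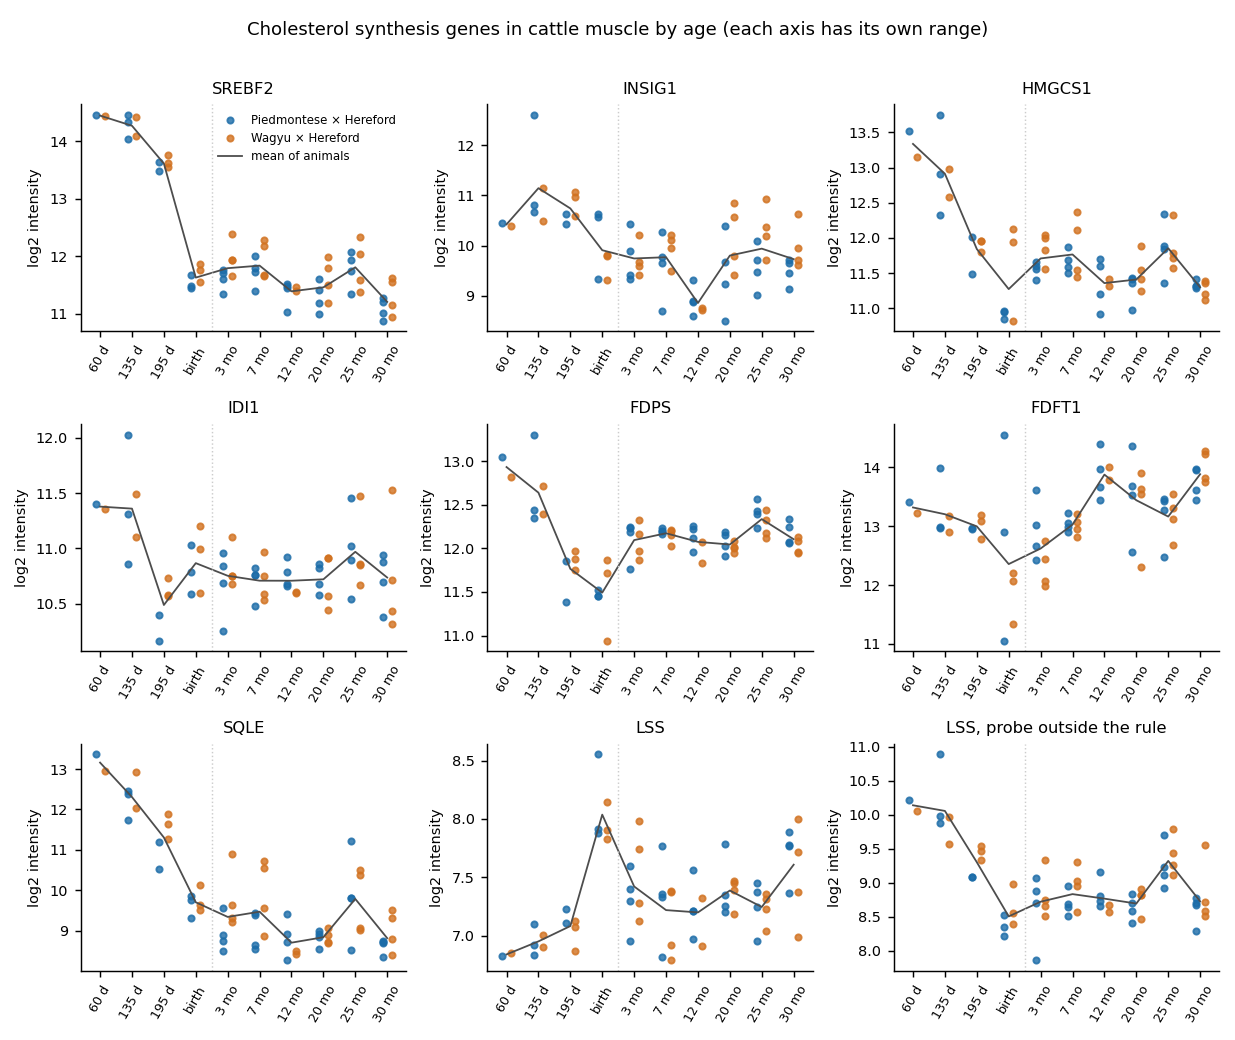
Log2 intensity of each gene by age in both crosses, one point per animal and a line through the mean of animals, with an axis range of its own for each gene. SREBF2 lies between 13.49 and 14.47 in all 12 fetal values and between 10.88 and 12.39 in all 46 post-natal values. The post-natal values repeat 9 animals. The panel of the LSS probe named LSS rises to birth and that of the other LSS probe falls.

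SREBF2, the regulator of the pathway, was the 1 member whose fetal and post-natal ranges did not overlap, which was not counted over all genes. Its log2 intensity was 14.44 and 14.46 in the 2 animals at 60 days. At 135 days the animals read 14.05, 14.10, 14.33, 14.42 and 14.47. At 195 days they read 13.49, 13.55, 13.63, 13.64 and 13.76. The 6 newborns ran from 11.44 to 11.87 with a median of 11.61, so that birth and 195 days did not overlap. Overlap was not counted over all genes in any later comparison either.

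Across fetal and post-natal ages SREBF2 fell by 2.53 on the log2 scale (SE 0.11, 5.77-fold lower, adjusted p = 2.1e-26 by limma). It fell by 0.66 from 135 to 195 days (SE 0.18, adjusted p = 0.00455) and by 1.98 from 195 days to birth (SE 0.17, 3.94-fold lower, adjusted p = 2.87e-14). The fall from 135 to 195 days was 0.72 without GP672 (adjusted p = 0.00325). The step to birth was measured within slides 1, 2 and 3. After birth the gene stayed low, at 11.79 ± 0.31 (SD, n = 8) at 3 months and 11.21 ± 0.27 (SD, n = 8) at 30 months. It fell by 0.59 between these ages (SE 0.12, adjusted p = 7.9e-05), and by 0.07 with channels centred on their median (adjusted p = 0.871).

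INSIG1, the sterol-sensing brake, was also lower after birth but varied more between animals. Its level was 10.42 ± 0.05 (SD, n = 2) at 60 days. At 135 days 4 animals read 10.49, 10.67, 10.81 and 11.14, and the GP672 library 12.60. The 5 animals at 195 days lay between 10.44 and 11.06, and the 6 newborns between 9.31 and 10.63, so these ages overlapped. INSIG1 fell by 1.09 from fetal to post-natal muscle (SE 0.20, adjusted p = 4.3e-06) and by 0.80 from 195 days to birth (SE 0.32, adjusted p = 0.026). The fetal to post-natal fall was 0.99 without GP672 (adjusted p = 6.7e-06). Without any one of GP041B, GP147, GW024 or GW071 the adjusted p of the step to birth lay between 0.0507 and 0.112. The lowest developmental level was at 12 months, 8.86 ± 0.25 (SD, n = 6), between 9.77 at 7 months and 9.80 at 20 months.

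HMGCS1, which makes HMG-CoA at the entry of the pathway, fell late in gestation and at birth. It read 13.15 and 13.51 at 60 days. The 135 day animals read 12.33, 12.59, 12.91 and 12.98, with GP672 at 13.75, and those at 195 days read 11.49, 11.80, 11.95, 11.96 and 12.01. No 195 day value reached the lowest of 135 days. HMGCS1 fell by 1.06 between these ages (SE 0.21, 2.09-fold lower, adjusted p = 0.000137) and by 0.87 without GP672 (adjusted p = 0.000982). It fell again by 0.55 to birth (SE 0.20, adjusted p = 0.0132), where 4 newborns lay between 10.83 and 10.96 and the other 2, both of the Wagyu cross, at 11.95 and 12.12. From birth to 3 months HMGCS1 rose by 0.43 (SE 0.17, adjusted p = 0.0372), and by 0.23 without the newborn GW146 (adjusted p = 0.278). From 3 to 30 months it fell by 0.41 (SE 0.14, adjusted p = 0.0148), but stood 0.11 higher at 30 months with channels centred on their median.

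IDI1 and FDPS, the isoprenoid enzymes, fell between 135 and 195 days and then took different courses. IDI1 read 10.86, 11.11, 11.31 and 11.49 at 135 days, with GP672 at 12.03, and 10.17, 10.39, 10.57, 10.58 and 10.73 at 195 days, with no overlap. The fall was 0.90 (SE 0.18, adjusted p = 0.000219), or 0.74 without GP672 (adjusted p = 0.00153). FDPS read 12.35, 12.39, 12.44 and 12.71 at 135 days, with GP672 at 13.30, and between 11.38 and 11.96 at 195 days.

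FDPS fell by 0.88 over this step (SE 0.14, 1.85-fold lower, adjusted p = 2.51e-06), or by 0.73 without GP672 (adjusted p = 1.35e-05). To birth IDI1 rose by 0.41 (SE 0.17, adjusted p = 0.0336) while FDPS differed by −0.25 (SE 0.13, adjusted p = 0.0899). The IDI1 call was lost without any one of GP041A, GP148, GW024, GW071, GW146 or GW600, at adjusted p from 0.0545 to 0.123. FDPS then rose by 0.60 to 3 months (SE 0.11, adjusted p = 2.49e-05), from 11.49 ± 0.32 (SD, n = 6) to 12.09 ± 0.20 (SD, n = 8). From fetal to post-natal muscle both enzymes fell by 0.30, with SE 0.11 for IDI1 (adjusted p = 0.0116) and 0.083 for FDPS (adjusted p = 0.00113). Without GP672 both fell by 0.25 (adjusted p = 0.0258 for IDI1 and 0.00208 for FDPS).

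SQLE, the squalene epoxidase that makes the first oxygenated sterol precursor, had the largest fall of the 8 genes. It read 12.96 and 13.37 at 60 days. The values were 11.73, 12.03, 12.38, 12.45 and 12.94 at 135 days, and 10.52, 11.19, 11.28, 11.64 and 11.89 at 195 days. The 6 newborns lay between 9.31 and 10.12 with a median of 9.70, below every fetal animal.

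From fetal to post-natal muscle SQLE fell by 3.11 (SE 0.24, 8.62-fold lower, adjusted p = 8.52e-17). The step from 195 days to birth was a fall of 1.53 (SE 0.37, 2.89-fold lower, adjusted p = 0.000359). The fall of 1.11 from 135 to 195 days (SE 0.39, adjusted p = 0.0334) was lost without any one of GP012, GP041A, GP672, GW600 or GW625, and the adjusted p was 0.0626 without GP672. Post-natal values spread widely, from 8.26 to 11.21 over 46 values, so that the highest post-natal value exceeded the lowest fetal one.

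LSS, which closes the sterol ring, gave 2 different answers. The probe named LSS was dim in the fetus. It was well above background in 1 of 6 channels at 60 days, 2 of 6 at 135 days and 4 of 6 at 195 days, and in 6 of 6 at birth. Its differences from fetal ages therefore rest partly on values not well above background, and their size is uncertain. At the probe named LSS the 195 day animals read 6.87, 7.08, 7.11, 7.13 and 7.23 and the newborns 7.83 to 8.55, a rise of 0.94 (SE 0.16, 1.92-fold higher, adjusted p = 2.36e-06). At the other probe the 195 day animals read 9.08, 9.08, 9.33, 9.47 and 9.54 and the newborns 8.21 to 8.99, a fall of 0.76 (SE 0.20, 1.69-fold lower, adjusted p = 0.000704). The ranges of the 2 ages overlapped at neither probe.

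From fetal to post-natal muscle the probe named LSS rose by 0.36 (SE 0.10, adjusted p = 0.00162) and the other fell by 0.97 (SE 0.12, adjusted p = 1.08e-09). Which probe follows the LSS transcript was not tested.

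FDFT1, squalene synthase, was not called between fetal and later muscle. It differed by 0.18 between fetal and post-natal muscle (SE 0.22, 95% interval −0.27 to 0.63, adjusted p = 0.464). Newborns were scattered, with 11.06, 12.90 and 14.56 in the Piedmontese cross and 11.34, 12.07 and 12.21 in the Wagyu cross, an SD of 1.26 at n = 6 beside 0.15 at 195 days. From 3 to 30 months FDFT1 rose by 1.26 (SE 0.24, 2.40-fold higher, adjusted p = 4.39e-05), from 12.62 ± 0.53 to 13.88 ± 0.29 (SD, n = 8 each). The path was uneven, with 13.88 ± 0.33 (SD, n = 6) at 12 months and 13.16 ± 0.39 (SD, n = 8) at 25 months.

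The members were also counted step by step. From 60 to 135 days none of the 8 passed the test in limma, where 15.6% of all genes did, and 0 had an unadjusted p under 0.05. FDPS passed without GP672 (a difference of −0.46, adjusted p = 0.0354). With 1 animal per cross at 60 days this step rests on 2 animals. From 135 to 195 days 5 members fell and none rose, beside 12.3% of all genes that fell and 11% that rose. From 195 days to birth 4 fell and 2 rose, beside 30.7% and 35.1% of all genes. The count of 6 was 3 with median centring and 3 with GP041A and GP041B taken as 1 animal, and in both settings HMGCS1, IDI1 and INSIG1 lost the call. From birth to 3 months 2 rose and 1 fell, beside 23.3% and 24.9%. The faller was the probe named LSS (−0.63, SE 0.14, adjusted p = 0.00032). From 3 to 30 months 1 rose and 2 fell, beside 19.6% of all genes in each direction. With median centring no member was called between 135 and 195 days or between birth and 3 months, and 1 was between 3 and 30 months.

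**Figure D2:**
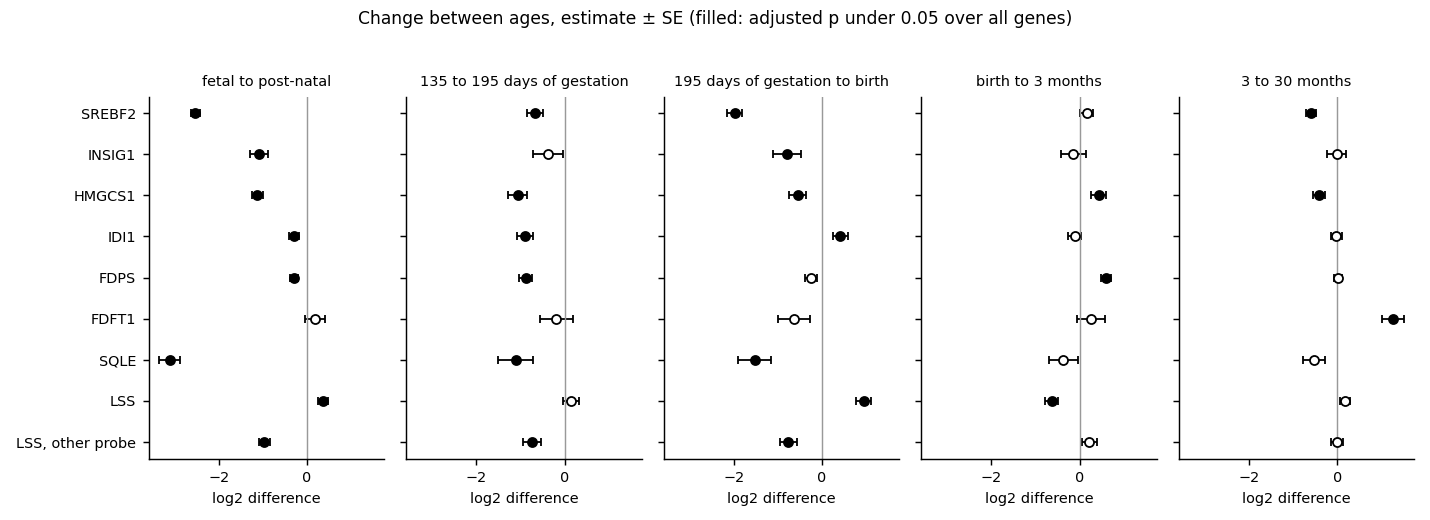
Log2 difference between ages with its standard error for the 8 genes and the other LSS probe, one panel per comparison and filled points for adjusted p under 0.05 over all genes. SREBF2 and SQLE lie furthest below 0 in the fetal to post-natal panel, at −2.53 and −3.11, and the 2 LSS probes lie on opposite sides of 0 at birth. The HMGCS1 value at 3 to 30 months changes sign with median centring.

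Other genes of the pathway were counted from lists of known function. Of 12 other synthesis enzymes tested, 8 fell and 2 rose from fetal to post-natal muscle, beside 38.4% and 40.7% of all genes. Their median difference was −0.32. MSMO1, a sterol methyl oxidase, fell by 2.42 (SE 0.14), and MVK, mevalonate kinase, fell by 1.21 (SE 0.088). The risers were EBP, a sterol isomerase, at 0.86 (SE 0.11), and PMVK, phosphomevalonate kinase, at 0.72 (SE 0.098). From 195 days to birth 4 of the 12 fell and PMVK rose, beside 30.7% and 35.1% of all genes. MSMO1 differed by −1.16 (SE 0.23) over that step.

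Of 7 uptake and trafficking genes tested, 3 fell and 3 rose from fetal to post-natal muscle, beside 38.4% and 40.7% of all genes. TMEM97, a sterol-regulated membrane protein, fell by 2.27 (SE 0.15). MYLIP, a ubiquitin ligase that limits sterol uptake, rose by 0.96 (SE 0.094).

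The other genes of SREBP control split. Of 5 tested, 3 rose and 2 fell from fetal to post-natal muscle, beside 40.7% and 38.4% of all genes. MBTPS1, the first protease to cut the SREBP precursor, fell by 1.59 (SE 0.069), and SCAP, its escort protein, by 0.45 (SE 0.084). SREBF1, the paralogue that drives fatty acid synthesis, rose by 1.45 (SE 0.16), opposite to SREBF2. The difference between the 2 paralogues was not tested.

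**Figure D3:**
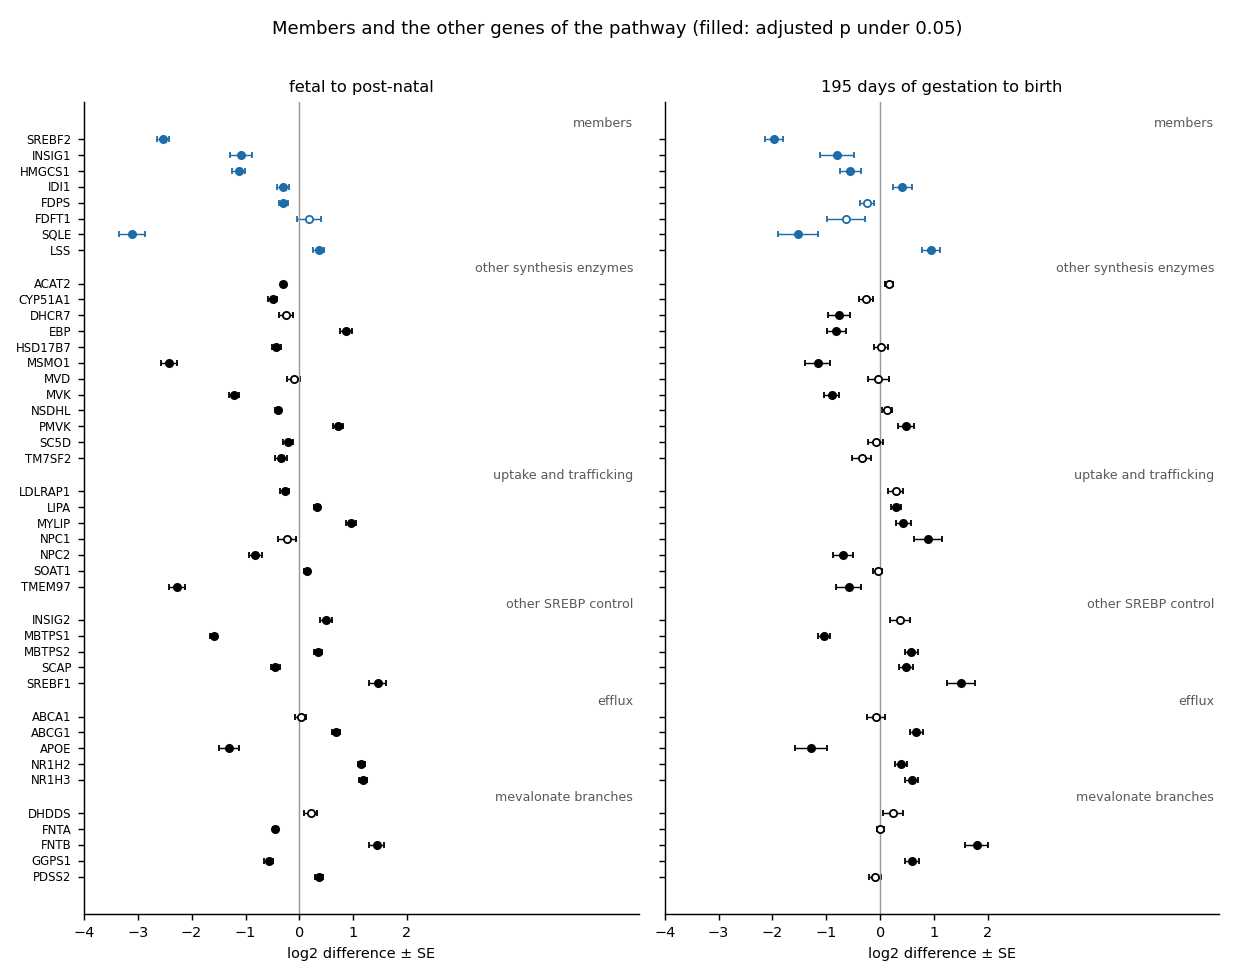
Log2 difference with its standard error for the members and for the other pathway genes by list, from fetal to post-natal muscle on one side and from 195 days of gestation to birth on the other, with filled points for adjusted p under 0.05. In the fetal to post-natal panel 8 of the 12 other synthesis enzymes are called below 0, and SREBF1 is called above 0 at 1.45.

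Markers of some other cells moved with the members, and those of others did not. In bulk muscle, fewer cells of a type and less RNA per cell cannot be told apart. All 4 proliferation markers tested fell from fetal to post-natal muscle and again from 195 days to birth. Their summed intensity was 11980 to 13189 at 60 days, 2785 to 4165 at 195 days and 474 to 626 at birth. All 5 fibroblast markers and all 3 blood markers fell over the same steps. The fibroblast sum was 127779 to 226149 at 195 days and 18885 to 41494 at birth, and the blood sum 109021 to 234602 and 2112 to 4336. Of the 5 muscle fibre markers 4 rose from fetal to post-natal muscle. All 5 adipocyte markers rose too, CIDEC by 2.80 (SE 0.44). Endothelium, Schwann cell and macrophage markers split, with VWF, MBP and CD14 higher and CDH5, PMP22 and CSF1R lower. Over all genes 38.4% fell and 40.7% rose in that contrast, and 30.7% fell from 195 days to birth. The part of these cells in the fall of the sterol genes was not tested.

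After birth 7 of the 8 genes changed over the 6 post-natal ages by limma's moderated F test, and 64.2% of all genes did. IDI1 was not called (adjusted p = 0.222). With median centring FDFT1 and INSIG1 were the 2 called. Values at 25 months stood out once the levels were laid side by side. From 20 to 25 months FDPS was higher in 8 of 8 animals, by 0.29 ± 0.10 (SD), and SQLE, HMGCS1 and SREBF2 in 7 of 8. From 25 to 30 months FDPS, HMGCS1 and SREBF2 were lower in 8 of 8 animals, HMGCS1 by a mean of −0.55 ± 0.29 and SREBF2 by −0.60 ± 0.34 (SD). SQLE went from 8.84 ± 0.17 to 9.79 ± 0.89 and back to 8.81 ± 0.41 (SD, n = 8 each). The other LSS probe did the same in 8 of 8 animals at both steps. FDFT1 instead was higher at 30 than at 25 months in 8 of 8.

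These higher values at 25 months were noticed after the values were seen, so this is a description with no test. The 25 and 30 month samples shared slides 10 and 12, while the 20 month samples were on slides 7, 8, 9 and 11. The step from 20 to 25 months therefore cannot be told apart from the slide. Blood markers summed to a median of 9462 at 25 months, against 3577 at 20 and 1001 at 30 months, and adipocyte markers to 23051, against 8107 and 17597. Their part in the higher values was not tested.

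The crosses, one bred for muscle and the other for marbling, were set side by side at every member, and none was called. Up to birth the Piedmontese minus Wagyu difference lay between −0.19 for SQLE and 0.35 for FDFT1 (95% interval −0.26 to 0.95), and 0 of the 8 were called in limma beside 0.873% of all genes. After birth it lay between −0.31 for SQLE (95% interval −0.86 to 0.23) and 0.10 for FDPS, with 0 of 8 called beside 0.0205% of all genes. All 16 adjusted p were 1, and 0 of the unadjusted p were under 0.05. The deposited log ratios called 1 member after birth, INSIG1 at −0.42 (adjusted p = 0.0464).

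In the diet experiment at most 1 member was called in each comparison. At time 0, 1 of the 8 genes was called between the diet groups, beside 3.86% of all genes. FDFT1 read 12.05, 12.10, 12.20 and 12.71 in the growth animals and 13.32, 13.66, 14.43 and 14.48 in the weight loss animals. It was higher in the weight loss group by 1.71 (SE 0.27, 3.26-fold, adjusted p = 0.00337) without overlap. The labels do not say whether the diets had begun by time 0. This difference cannot be told apart from one present before the diets. At time 1 the groups read 12.99, 13.00, 13.30 and 13.30 against 13.57, 13.65 and 13.99, a difference of 0.61 (SE 0.29, adjusted p = 0.152).

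At time 1, 1 of 8 members was called beside 20.2% of all genes. IDI1 read 10.61, 10.71, 10.73 and 10.89 on growth and 10.07, 10.28 and 10.38 on weight loss, a difference of −0.51 (SE 0.15, 1.42-fold, adjusted p = 0.023). The call was lost without any one of RG166, RG208, RL27 or RL671, at adjusted p from 0.0503 to 0.119, and with median centring. SQLE read 8.76, 8.99, 9.92 and 10.11 on growth and 8.22, 8.33 and 8.63 on weight loss. These groups did not overlap, and the difference was −1.07 (SE 0.38, adjusted p = 0.0592). At time 2, with 2 animals each, 0 of 8 members and 0% of all genes were called by limma, although 247 genes, none of them a member, had an unadjusted p under 0.05 and the deposited log ratios called 209 genes.

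**Figure D4:**
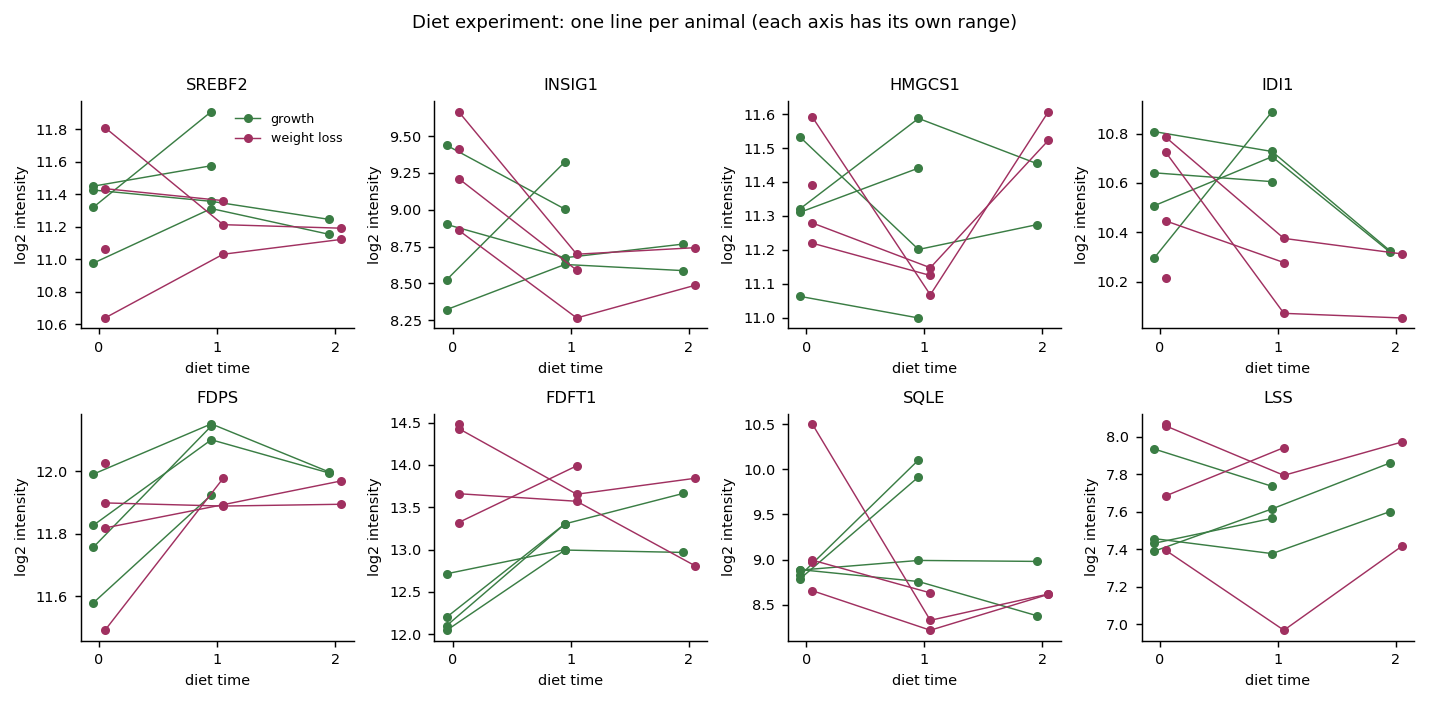
Log2 intensity of the 8 genes at diet times 0, 1 and 2, one line per animal, coloured by diet, each gene with its own axis range. FDFT1 separates the diet groups at time 0, at 12.05 to 12.71 in the growth group and 13.32 to 14.48 in the weight loss group. SQLE separates them at time 1.

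Over time 0 to time 1, each on a slide of its own, INSIG1 was the 1 member called on the weight loss diet, beside 15.5% of all genes. It read 8.86, 9.21, 9.41 and 9.67 at time 0 and 8.26, 8.59 and 8.70 at time 1. It fell by 0.76 (SE 0.22, adjusted p = 0.0313) and was lower in all 3 animals measured at both times, but the call was lost without any one of the 4 animals, at adjusted p from 0.0515 to 0.201. On the growth diet 0 of 8 were called by limma beside 4.24% of all genes, with FDFT1 at 0.88 (SE 0.25, adjusted p = 0.0561). FDFT1 and FDPS were the 2 with an unadjusted p under 0.05, and FDFT1 was called with processed signals.

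The difference of the 2 time courses, which cancels the slide because the diets shared each array, was called by limma for 0 of 8 members beside 12.1% of all genes, with an unadjusted p under 0.05 for 4. SQLE came to −1.50 (SE 0.48, adjusted p = 0.0527) and FDFT1 to −1.09 (SE 0.37, adjusted p = 0.0642). INSIG1 came to −0.88 (SE 0.30, adjusted p = 0.0695) and IDI1 to −0.49 (SE 0.18, adjusted p = 0.0967). The shared sign does not mean that all 4 were lower on weight loss, since FDFT1 was higher there at both times. FDFT1 and INSIG1 were the 2 members with an unadjusted p under 0.05 in limma between diets at time 0, both higher on weight loss. The SQLE change on weight loss was −2.18 in RL27, −0.44 in RL24 and −0.36 in RL671, and on growth it was 1.28, 1.13, 0.11 and −0.13. RL27 had the largest of these changes.

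Of the 7 uptake and trafficking genes 2 were higher on weight loss at time 1 and none lower, and of 5 efflux genes 2 were higher and 1 lower, beside the 20.2% of all genes called. NPC1, which moves cholesterol out of lysosomes, was 11.90 to 13.32 in the 3 weight loss animals and 10.44 to 11.12 in the 4 growth animals, a difference of 1.66 (SE 0.40, adjusted p = 0.00895). ABCA1, the sterol export pump, was 8.18 to 8.76 against 6.65 to 7.29, a difference of 1.45 (SE 0.18, adjusted p = 0.000169). Neither gene overlapped between the diets. MYLIP was 0.58 higher (SE 0.18, adjusted p = 0.0286) and NR1H3, an oxysterol receptor, 0.63 higher (SE 0.14, adjusted p = 0.00613), while APOE, a lipid carrier, was lower, at −0.92 (SE 0.27, adjusted p = 0.0249). The call of NPC1 was lost without RL27 (1.24, adjusted p = 0.0881). That of MYLIP was lost without any one of RG157, RG166, RL27 or RL671, at adjusted p from 0.0555 to 0.128, and that of APOE without any one of RG157, RG208, RL27 or RL671, at adjusted p from 0.0556 to 0.18, and with median centring. Of the 12 other synthesis enzymes 1 was lower, HSD17B7, and 2 were higher, ACAT2 and MVD. The HSD17B7 call was lost without any one of RG166, RG208, RL24 or RL671, at adjusted p from 0.0557 to 0.111, and with median centring. That of ACAT2 (0.25, SE 0.072) was lost without any one of RG166, RG604, RL27 or RL671, at adjusted p from 0.0576 to 0.0853, and with quantile normalization or median centring, and that of MVD (0.91, SE 0.23) without RL27 (0.87, adjusted p = 0.0665). In the difference of the time courses NPC1 came to 2.39 (SE 0.50, adjusted p = 0.00838), and without RL27 to 1.96 (adjusted p = 0.0694).

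Markers of some other cells moved with these differences as well. At time 1 all 5 muscle fibre markers, all 4 proliferation markers and 4 of 5 fibroblast markers were lower on weight loss. Of the endothelium markers CDH5 (−0.80) and PECAM1 (−0.71) were lower and VWF was not called. No adipocyte, macrophage, Schwann cell or blood marker was called there, beside 20.2% of all genes. The muscle fibre sum was 244613 to 373989 on weight loss and 767437 or more on growth, and the fibroblast sum 4196 to 6873 against 34137 to 130067. The part of these cells in the diet differences was not tested.

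Co-expression was described over the 26 conditions, each a cross or diet at one time. The median Pearson r of the 28 pairs of members was 0.50, from −0.75 to 0.97, and 4 pairs were above 0.8. That median was 0.37 with each experiment's mean removed and 0.29 with median centring. SREBF2 and SQLE had the highest r of the 28 pairs, 0.97, which was 0.83 over the 12 post-natal conditions and 0.95 over the 8 up to birth. HMGCS1, SQLE, FDPS, IDI1, SREBF2 and INSIG1, grouped after the values were seen, had a median r of 0.74 over 15 pairs, and 0.72 without GP672. The median of these 15 pairs was 0.78 over the 8 conditions up to birth, 0.58 over the 12 post-natal conditions and 0.15 over the 6 diet conditions. Over the diet conditions 3 of the 28 pairs were above 0.8 and 10 were below 0. The 3 were SQLE with IDI1 (0.89), SQLE with INSIG1 (0.84) and IDI1 with SREBF2 (0.87). The lowest of the 15 pairs there was −0.31. The probe named LSS had r from −0.75 to −0.52 with these 6 genes and the other LSS probe from 0.69 to 0.93. FDFT1 lay between −0.18 and 0.24 with the other 7 genes. Conditions share animals, arrays and normalization, so no p is given.

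Deviations of animals from their condition mean were less alike. Over 46 post-natal values the 6 genes had a median r of 0.51, with 0.77 for SREBF2 and SQLE. Over 19 diet values it was 0.01, with 0.73 for that pair. The 46 values repeat 9 animals and the diet values also repeat animals, so neither set is independent.

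**Figure D5:**
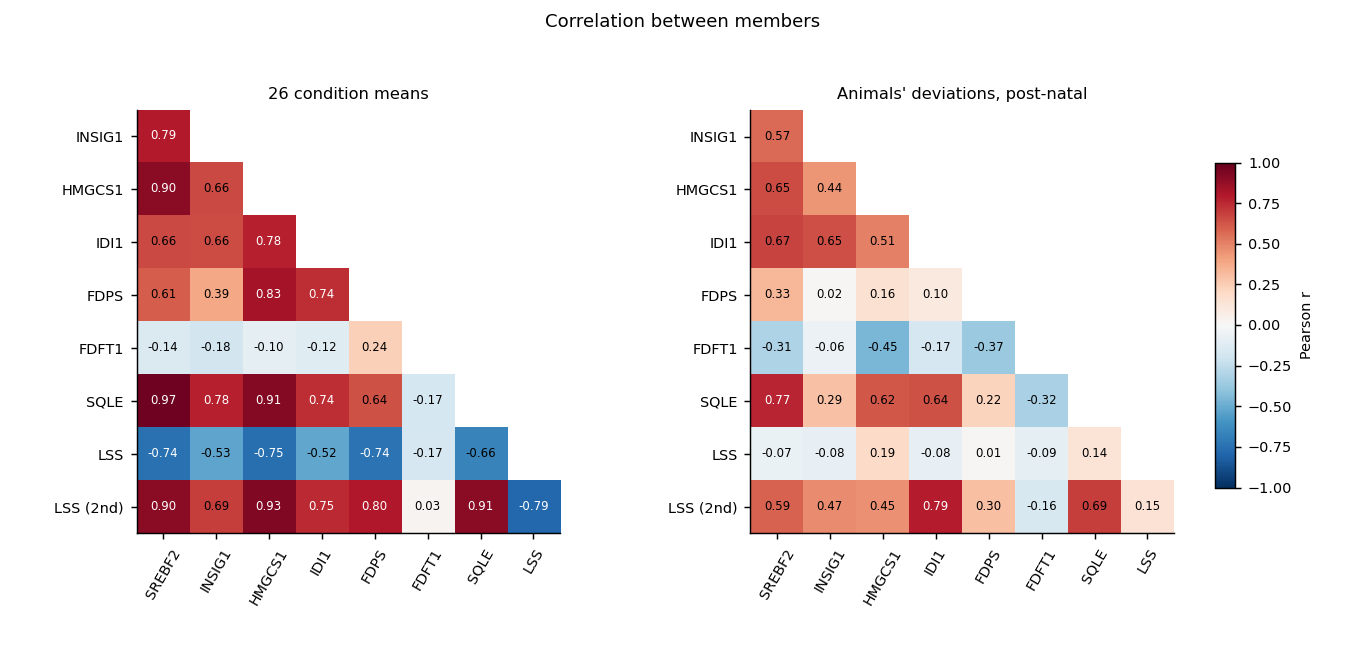
Pearson r between members, over the 26 condition means in one panel and over the deviations of 46 post-natal animal values in the other, coloured from −1 to 1. The LSS probe named LSS is negative against the 6 co-varying genes over conditions (−0.75 to −0.52), its other probe is positive, and FDFT1 is near 0.

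By the rule of the 3 highest r over the 26 conditions, the genes most like SQLE were MSMO1 (0.98), which follows it in the sterol pathway, BEX3 (0.98) and PDIA6 (0.97). SREBF2 was most like PDIA6 (0.99), CDT1 (0.98), a licensing factor of DNA replication, and PRKAR1B (0.98). The other LSS probe was most like ACLY (0.96), which supplies acetyl-CoA for lipid synthesis. FDPS was most like JPT1 (0.90) and FDFT1 most like HPS3 (0.72).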

How the data were processed

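Total RNA of bovine longissimus dorsi muscle was hybridised in pairs by the authors to 48 two-colour Agilent arrays. Per the labels the scans were read with Agilent Feature Extraction 9.5.1, and the file headers name 9.5.3.1. The deposited mean and background intensity of each channel were used, and the deposited log10 ratios, also given in the series table, served as an alternative (0 of the table's values differed from the scanner files). The number of arrays and animals limits the precision. Background was corrected with normexp (offset 50), followed by loess within and Aquantile between arrays in limma 3.58.1 under R 4.3.3. Control spots had no weight, flagged spots were removed, and spots were averaged per probe. Probes well above background in at least 24 of 96 channels were kept and probes of a gene averaged, leaving 14663 genes from 21475 probes. Symbols came from a RefSeq gene table, and 4764 probes kept the name in the files. LSS was kept as its named probe, with the other probe shown apart.

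The dye effect was removed per gene and channels averaged per animal and time. Models were fitted separately to development (64 animal values) and diet (19), with animal as a random block (within-animal correlation 0.285 and 0.158), moderated by eBayes, two-sided, with p adjusted over all genes and a threshold of 0.05. The step was checked on simulated data. Named genes were the 8 members, examples by size of change from functional lists, and the 3 genes of highest correlation with each member. The members and lists were chosen with earlier results of these data known. Alternatives were quantile normalization, median centring, Feature Extraction's processed signals, no filter or one at 48 channels, the brightest probe per gene, no dye correction, slide as a fixed effect, the deposited log ratios, GP041A and GP041B as 1 animal, and leaving out each of the 35 animals. Nothing says that biopsies of an age were independent beyond the animal codes. Promoter sequences were not analysed here, and some genes of the pathway lists are not reported here.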

Additional observations from a re-analysis of the deposited data

Results flagged for a closer look

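Of 96 groups of animals tested over the 8 members, 4 held an outlying animal, and chance flags about 1 in 20 groups. FDFT1 at 135 days was highest in the Piedmontese cross animal GP672, at a log2 intensity of 13.99 against 13.17 in the next animal (gap over range 0.753, n = 5). This is the library in which muscle fibre markers were low and adipocyte markers high. LSS in the growth group at diet time 0 was highest in RG157, at 7.93 against 7.46 (0.876, n = 4). FDPS at 7 months was lowest in the Wagyu cross animal GW212, at 12.03 against 12.16 (0.641, n = 8). SREBF2 at 12 months was lowest in the Piedmontese cross animal GP201, at 11.03 against 11.40 (0.744, n = 6).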

How the results depend on the processing

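Of 1048 member values under other settings, 1014 kept their direction and side of the threshold, 27 lost the call, 6 gained it and 1 reversed. Of 1264 values with an animal left out the numbers were 1208, 44, 12 and 0. For the other named genes 1 value reversed. With each channel centred on its median the count of members called was 0 at 135 to 195 days, 3 at 195 days to birth, 0 at birth to 3 months, 1 at 3 to 30 months, 2 over the post-natal ages and 0 between diets at time 1. Under it HMGCS1 at 3 to 30 months was 0.11 and MBTPS1 0.35, both reversed. That centring also called fewer genes in all, 435 in place of 3415 at 135 to 195 days and 2016 in place of 5742 at 3 to 30 months, and it moved the share of calls that rose from 50.1% to 75.8% at 3 to 30 months, 48.6% to 31.4% at 60 to 135 days and 48.4% to 33.1% at birth to 3 months. In the diets that share went from 45.6% to 29.3% at time 0, 51.9% to 75.9% at time 1, 61.2% to 72.5% over time on weight loss, 60.4% to 18.5% on growth and 51.5% to 80.8% for the difference of time courses. The median of all genes under it was 0.13 for fetal to post-natal, 0.20 at 195 days to birth, 0.16 at 3 to 30 months, −0.10 on growth and 0.14 for the difference of time courses. Processed signals gave 62.0% at 60 to 135 days, and the deposited log ratios 60.2% in place of 89.8% for the crosses up to birth and 49.1% in place of 33.3% after birth. The cause was not tested. Slide as a fixed effect called 1 at 60 to 135 days, and GP041A with GP041B as 1 animal called 3 at 195 days to birth. The deposited log ratios called 1 between crosses after birth (INSIG1, −0.42), 2 between diets at time 1 and 1 for the difference of time courses (SQLE, −1.74). A filter at 48 channels called 1 for that difference, and processed signals 1 on the growth diet (FDFT1, 0.93). The median r of the 28 pairs was 0.37 with each experiment's mean removed, 0.51 with quantile normalization and 0.29 with median centring. With animals left out, counts ranged from 7 to 7 for fetal to post-natal, 0 to 1 at 60 to 135 days, 4 to 5 at 135 to 195 days, 4 to 7 at 195 days to birth, 2 to 3 at birth to 3 months, 2 to 4 at 3 to 30 months, 5 to 7 over the post-natal ages, and 0 to 0 for the crosses up to birth and after birth. For diets they were 1 to 1, 0 to 1 and 0 to 0 at times 0, 1 and 2, 0 to 1 on weight loss, 0 to 0 on growth and 0 to 2 for the difference of time courses. By array number, no paired analysis was possible because those numbers tie no animals across times. Animals measured at several times were tied by their codes instead and fitted as a random block. The dim LSS probe was well above background in 69 of 96 channels, which limits its fetal values.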

Other observations

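Of 8 fatty acid genes under SREBP, 6 fell and 0 rose from fetal to post-natal muscle, beside 38.4% and 40.7% of all genes, with FADS1 at −2.88 (SE 0.22) and ACLY at −2.23 (SE 0.23). From 3 to 30 months 4 rose and 2 fell, beside 19.6% of all genes in each direction, with SCD at 1.42 (SE 0.25), ELOVL6 at 1.44 (SE 0.34), FASN at 1.04 (SE 0.24) and ACACA at 0.76 (SE 0.20), and with FADS1 at −0.77 (SE 0.24) and FADS2 at −0.73 (SE 0.15). Neither of these 2 falls was called with median centring (adjusted p = 0.469 and 0.508). All 5 adipocyte markers rose. The probes of SCD and of FASN disagreed in sign in some contrasts. From fetal to post-natal muscle the FASN probes differed by −1.54, −0.43, −0.06 and −0.02, so its fall rests largely on 1 probe. Among 5 efflux genes, 3 rose and 1 fell from fetal to post-natal muscle, beside 40.7% and 38.4% of all genes. APOE, a lipid carrier, fell by 1.30 (SE 0.19), and NR1H3, an oxysterol receptor, rose by 1.18 (SE 0.078).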
